A study of Mus musculus with 11 samples.

Results

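Fibrillar and matricellular matrix genes are the subject here: the 9 genes Fn1, Col1a1, Col1a2, Col3a1, Col6a1, Sparc, Spp1, Tnc and Thbs1, chosen by name as interstitial and matricellular matrix linked to glomerular scarring. The deposited estimated counts of each gene's transcripts were summed over 34547 genes, and 9 of the 9 were among the 21200 genes that passed the filter on low counts. Podocytes, the epithelial cells that cover the glomerular capillaries, were sorted from C57BL/6 mice that carry the transgene Podocin.2a.iCre.2a.mT, in which the podocin promoter drives Cre and the fluorophore mTomato in podocytes. PodTOM mice (3 untreated libraries AOL_1081, AOL_1082 and AOL_1086, and 3 nephritic libraries AOL_1225, AOL_1231 and AOL_1265) carried this transgene with wild-type Myd88. MyD88pko mice (2 untreated libraries BKV_729 and BKV_733, and 3 nephritic libraries BKV_884, BKV_889 and BKV_890) carried it with Myd88 flox/flox, so that the adaptor was deleted where Cre was active, while other cells kept it. Nephrotoxic nephritis (NTN), an antibody-mediated glomerulonephritis, was induced in male mice of 8 to 16 weeks with 9 µl per g body weight of nephrotoxic sheep serum on each of 2 consecutive days, and their podocytes were sorted on day 5. The controls received no serum, and their age is not given separately. The number of mice in a library is not given in the sources used here, and p-values measure only how libraries scatter.

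Fibrillar collagens (types I and III) form the load-bearing fibres of interstitial tissue, collagen VI forms beaded filaments around cells, and fibronectin is the glycoprotein scaffold on which these fibres are laid down. Matricellular proteins (SPARC, osteopontin, tenascin-C and thrombospondin-1) are secreted into the matrix but mainly tune adhesion, growth factor signalling and collagen assembly. The healthy glomerulus has a basement membrane of collagen IV and laminin rather than fibrillar collagen, and the deposition of interstitial matrix is a feature of glomerular scarring.

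Total estimated counts ranged from 14563271 to 19483013 in untreated and from 20080140 to 32764201 in nephritic libraries. Values are given as CPM, counts scaled to library size by TMM, and levels of different genes are compared only as TPM, which corrects for transcript length. Myd88 itself was at 6.49 to 14.1 CPM in PodTOM and 0.2 to 0.976 CPM in MyD88pko libraries. The 15 podocyte markers had a summed level between 50779.4 and 64687.9 CPM without nephritis and between 34238.2 and 49011.4 CPM with it. The sum of 15 endothelial markers was higher in nephritis, between 139.5 and 195.0 CPM without and between 201.7 and 405.7 CPM with it. The endothelial cadherin Cdh5 went from 3.55 to 5.83 CPM to 10.3 to 37.1 CPM. Pecam1 rose in PodTOM from 17.4 to 20.7 CPM to 25.1 to 32.7 CPM. In MyD88pko it went from 18.4 to 33.0 CPM to 15.6 to 16.7 CPM. Of 14 endothelial markers tested, 8 were called higher in PodTOM and 2 in MyD88pko (edgeR adjusted p under 0.05), beside 15.9% and 11.3% of all genes. The sum of 8 neutrophil markers lay between 12.4 and 25.1 CPM without and between 20.0 and 49.7 CPM with nephritis, ranges that overlapped within MyD88pko but not within PodTOM, with Ly6g at 0 in every untreated and at most 0.808 CPM in nephritic libraries, and the platelet marker Pf4 was at most 0.0937 CPM. The part of these cells in the results was not tested. In bulk samples, fewer cells of a type and less RNA per cell cannot be told apart. Nephritic libraries also carried more signal over 549 vomeronasal receptor genes, which podocytes are not known to use: it summed to 60.7 to 90.9 CPM in untreated libraries and to 130.3 (BKV_890), 209.4 (AOL_1265), 276 (AOL_1231), 376.1 (BKV_884), 465.6 (BKV_889) and 474.5 CPM (AOL_1225) in nephritic ones. The last 3 of these libraries are left out wherever the text speaks of libraries with most vomeronasal signal, which leaves 1 nephritic MyD88pko library that is then assumed to vary like the others. Every nephritic library exceeded every untreated one in this signal. In a fit with it as a covariate, signal and nephritis therefore cannot be cleanly told apart. No conclusion on the source of a change is drawn from calls lost in that fit.

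Per length, the 9 genes were led by Sparc with a mean of 2739.2 TPM over the 11 libraries (2007.8 to 3855). Col1a2 followed at a mean of 93.6 TPM (70.8 to 123.4) and Thbs1 at 73.8 TPM (25.1 to 154.9), and the ranges of these neighbours overlapped. Fn1 had a mean of 8.80 TPM (4.79 to 12.7), and the remaining genes were lower still over all transcript models: Spp1 at 3.55, Col1a1 at 3.31, Tnc at 2.06, Col3a1 at 0.811 and Col6a1 at 0.539 TPM, with overlapping ranges. Sparc ranked between 24 and 34 among all genes by TPM in every library, whereas Col3a1 was at 0 in 4 libraries. The order of the lower genes rests on noncoding models: with coding transcripts alone Fn1 was lowest at a mean of 0.300 TPM, and Col1a1 at 1.60 TPM fell below Tnc, with Col6a1 at 0.518 and Col3a1 at 0.470 TPM.

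**Figure D1:**
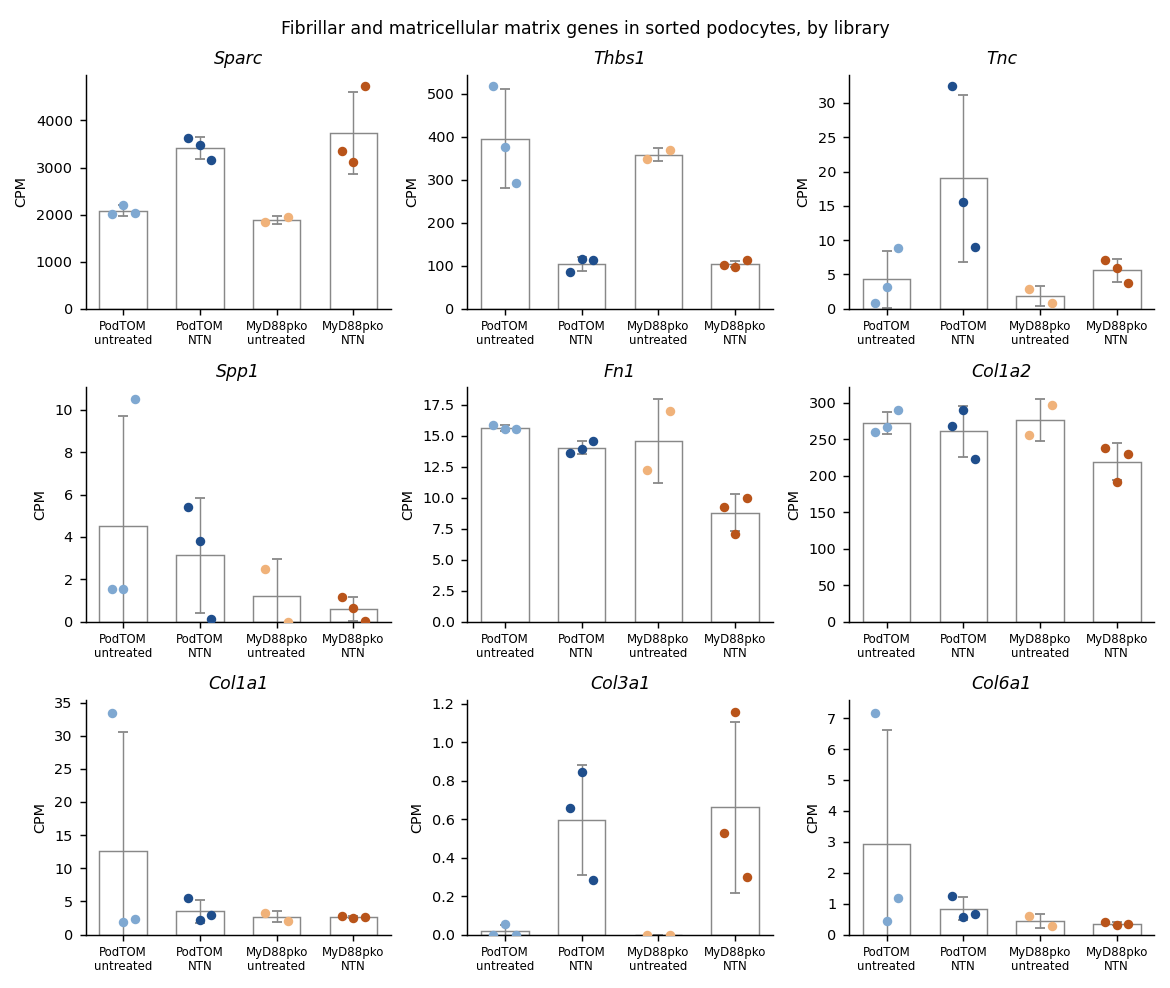
CPM of the 9 matrix genes in each library (points), with the mean (bar) and SD (line) of the 3 PodTOM untreated, 3 PodTOM NTN, 2 MyD88pko untreated and 3 MyD88pko NTN libraries; each panel has its own linear axis from 0. The nephritic libraries of both genotypes lie above the untreated ones for Sparc (at least 3110 against at most 2212 CPM) and below them for Thbs1 (at most 115.7 against at least 292.7 CPM), while Col1a1 and Col6a1 are set by 1 untreated library.

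The first question was which of these genes differed between nephritic and untreated podocytes of PodTOM mice, whose Myd88 is intact. Of the 9 genes, 3 were higher (Sparc, Tnc and Col3a1) and 1 was lower (Thbs1) at an adjusted p under 0.05 (edgeR quasi-likelihood test, Benjamini-Hochberg over 21200 genes), where 15.9% of all genes tested were called higher and 9.93% lower. In MyD88pko podocytes the same comparison called 2 higher (Sparc and Col3a1) and 1 lower (Thbs1), beside 11.3% and 8.22% of all genes. The median log2 fold change of the 9 genes was -0.16 in PodTOM and -0.30 in MyD88pko, against 0.19 and 0.16 over all genes. The calls for Sparc and Thbs1 held in all 20 alternative analyses of each genotype, and those for Tnc and Col3a1 did not.

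**Figure D2:**
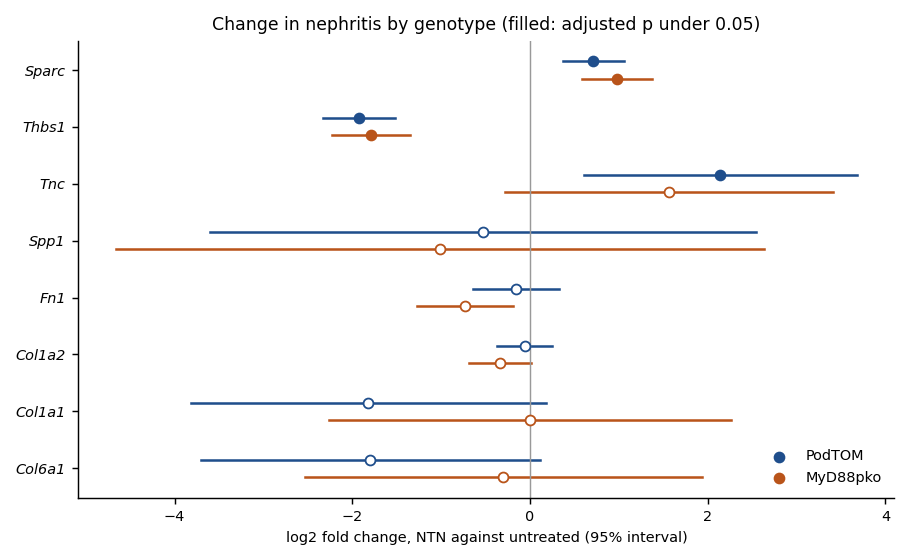
Log2 fold change of NTN against untreated (x axis) with its 95% interval for 8 of the matrix genes (y axis) in PodTOM (blue, upper) and MyD88pko (orange, lower); filled points passed an adjusted p under 0.05 in edgeR. Col3a1 is not drawn because its untreated libraries held 1 count in all. The intervals of Sparc lie above 0 and those of Thbs1 below 0 in both genotypes, and those of Spp1 and Col1a1 are wide.

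Among the matricellular genes, Sparc (ENSMUSG00000018593, chromosome 11, 55394500 to 55423183, minus strand, GRCm38) encodes a collagen-binding glycoprotein that regulates cell spreading and collagen deposition. Its CPM was 2020, 2212 and 2026.8 in untreated PodTOM libraries and 3621.3, 3470.4 and 3163.7 in nephritic ones. In MyD88pko podocytes it was 1834.6 and 1955.4 untreated and 3357.4, 3110 and 4737.7 in nephritis. Every nephritic library exceeded every untreated one, and BKV_890, which has least vomeronasal signal among the nephritic libraries, was highest. Sparc rose 1.64-fold in PodTOM (log2 fold change 0.71 ± 0.16 SE, n = 3 and 3, edgeR adjusted p = 0.00523) and 1.97-fold in MyD88pko (0.98 ± 0.19 SE, n = 3 and 2, edgeR adjusted p = 0.00226). The genotypes did not differ beyond their spread in nephritis (log2 fold change 0.13, 95% interval -0.22 to 0.47) (adjusted p = 1 in edgeR). Both untreated MyD88pko libraries lay below the 3 untreated PodTOM libraries, by a margin that was not called (-0.14, -0.53 to 0.25).

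The rise of Sparc could be followed to transcript models. Sparc-202 (chromosome 11, 55394500 to 55419898) held 64.3% to 71.6% of the gene's counts in each group, and Sparc-201, the model with the longer first exon that starts at 55420080, held 9.52% to 20.5%. Sparc-209 (55395421 to 55420325) reaches further upstream and has a shorter 3′ end. The window from 250 bases before to 50 bases after the RefSeq start (chr11:55420031-55420330, minus strand, GRCm38.p6) is shown because its start is that of Sparc-201 while the 150 bases in capitals are exons of Sparc-209.
Sparc window: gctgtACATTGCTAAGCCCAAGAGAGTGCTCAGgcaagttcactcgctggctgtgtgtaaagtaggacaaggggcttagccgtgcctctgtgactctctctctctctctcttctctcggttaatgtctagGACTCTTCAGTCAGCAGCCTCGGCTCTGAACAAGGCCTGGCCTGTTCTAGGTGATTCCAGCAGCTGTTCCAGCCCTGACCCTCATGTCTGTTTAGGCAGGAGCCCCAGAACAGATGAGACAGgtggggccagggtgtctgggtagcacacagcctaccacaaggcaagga

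Sparc-202 was at 1275.6, 1480.9 and 1487.6 CPM in untreated and 2655.8, 2457.2 and 1971.6 CPM in nephritic PodTOM libraries, a rise of 0.74 ± 0.15 SE in log2 (n = 3 and 3, edgeR adjusted p = 0.0218 over 58398 transcripts). In MyD88pko its log2 fold change was 1.34 ± 0.18 SE (edgeR adjusted p = 0.00326). Sparc-201 rose in PodTOM from 60.6 to 310.3 CPM to 592.7 to 748.7 CPM (log2 fold change 1.98, edgeR adjusted p = 0.0444), and in MyD88pko it was at 237.8 to 254.1 CPM untreated and 604.4 to 1151.7 CPM in nephritis (1.73, edgeR adjusted p = 0.118). These Sparc-201 calls turned round when a model was fitted to the libraries compared alone: the log2 fold change was 1.99 with an edgeR adjusted p of 0.0928 in PodTOM and 1.71 with 0.0432 in MyD88pko. Sparc-209 had log2 fold changes of 0.10 (95% interval -0.51 to 0.70) and -0.20 (-0.87 to 0.47), so its share of Sparc counts was 17.6% in untreated and 11.5% in nephritic PodTOM, and 20.6% and 7.61% in MyD88pko. Whether the models differ from each other in response was not tested. Of all transcripts tested, 5.40% were called in PodTOM and 4.28% in MyD88pko. The models share most of their sequence (27 of the 2085 words of 31 bases in Sparc-202 occur in no other Sparc transcript, 180 of 2270 in Sparc-201 and 26 of 1274 in Sparc-209), so the split of counts between them is an estimate.

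**Figure D3:**
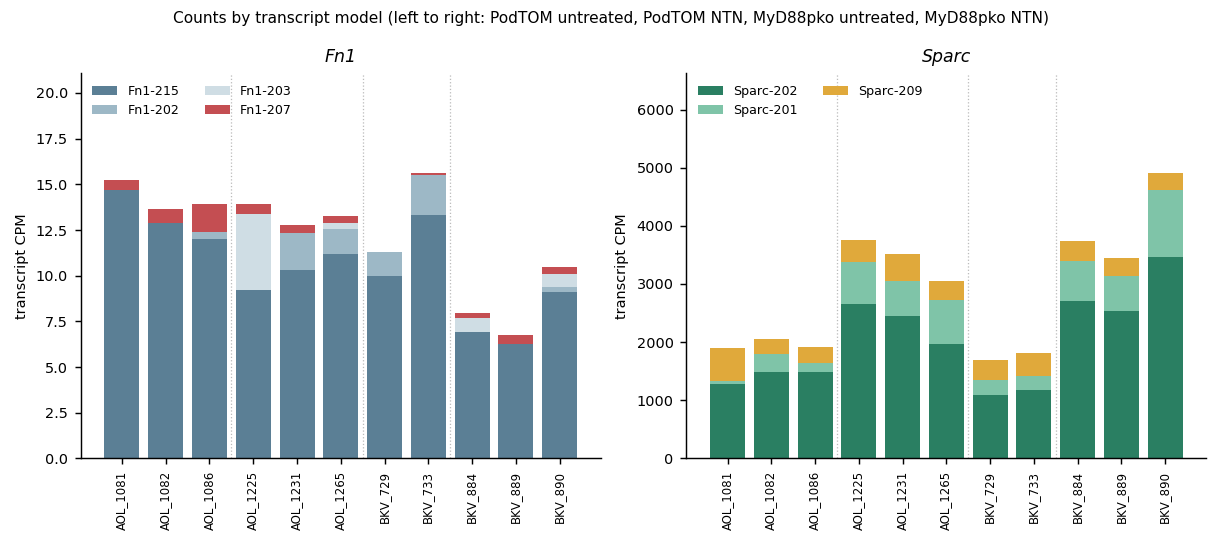
CPM of the transcript models of Fn1 (left) and Sparc (right) with at least 5% of the gene's counts in a group, stacked for each library; dotted lines part the PodTOM untreated, PodTOM NTN, MyD88pko untreated and MyD88pko NTN libraries. The noncoding model Fn1-215 fills most of each Fn1 bar (64.8% to 96.5% of the gene's counts), and the taller Sparc bars of nephritic libraries come with more Sparc-202 and Sparc-201.

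Thbs1 (ENSMUSG00000040152, chromosome 2, 118111876 to 118127133, plus strand) encodes thrombospondin-1, which restrains angiogenesis, activates latent TGF-β and binds CD36 and CD47. Its CPM was 519, 375.5 and 292.7 in untreated PodTOM libraries and 84.8, 115.7 and 112.7 in nephritic ones. In MyD88pko podocytes it was 348 and 369.6 untreated and 101.9, 97.3 and 112.5 in nephritis. The lowest untreated library was above the highest nephritic library by a wide margin, and the nephritic libraries of both genotypes had the same mean of 104 CPM. Thbs1 fell 3.79-fold in PodTOM (log2 fold change -1.92 ± 0.19 SE, n = 3 and 3, edgeR adjusted p = 7.17e-06) and 3.45-fold in MyD88pko (-1.79 ± 0.21 SE, n = 3 and 2, edgeR adjusted p = 4.63e-05). The difference between these responses was 0.13 with a 95% interval of -0.46 to 0.73. The fall lay on Thbs1-201, the coding model that held 99.6% to 100% of the gene's counts (transcript log2 fold changes -1.83 and -1.57, edgeR adjusted p = 0.0013 and 0.00415). In TPM, Thbs1 stood above Col1a2 in 4 of the 5 untreated libraries and below it in all 6 nephritic ones.

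Tnc (ENSMUSG00000028364, chromosome 4, 63959785 to 64047015, minus strand) encodes tenascin-C, a hexameric protein that loosens adhesion to fibronectin and is induced in injured tissue. It was at 0.850, 3.18 and 8.80 CPM in untreated and 32.5, 15.6 and 8.96 CPM in nephritic PodTOM libraries. MyD88pko libraries had 2.93 and 0.868 CPM untreated and 7.15, 5.94 and 3.81 CPM in nephritis. The PodTOM groups almost met, with AOL_1086 just under AOL_1265, and AOL_1225 was far above the rest. Tnc rose in PodTOM with a log2 fold change of 2.14 ± 0.71 SE (n = 3 and 3, edgeR adjusted p = 0.0436), and in MyD88pko the log2 fold change was 1.56 ± 0.84 SE (n = 3 and 2, edgeR adjusted p = 0.198). The PodTOM call was kept in 9 of 20 alternatives, and of the 11 libraries only AOL_1086, AOL_1265 and BKV_890 could each be left out without losing it (edgeR adjusted p from 0.0534 to 0.155 without one of the others). Without AOL_1225 the PodTOM value was 1.53, and without the 3 libraries with most vomeronasal signal it was 1.52 with an adjusted p of 0.21. The part of that signal in the change of Tnc was not tested. In a fit with it as a covariate, which cannot cleanly tell it from nephritis, the log2 fold change was 1.02 (edgeR adjusted p = 0.738). The 14 mesangial and smooth muscle markers summed to 131.2 to 215.3 CPM in untreated PodTOM. They reached 307.5 CPM in AOL_1225, 286.4 CPM in AOL_1231 and 164.1 CPM in AOL_1265, in the order of Tnc in these 3 libraries. The 15 endothelial markers had the same order there (405.7, 365.2 and 213.8 CPM). Elsewhere the order broke: AOL_1081 had 215.3 CPM of the mesangial and smooth muscle markers and the lowest Tnc of the series. Among nephritic MyD88pko libraries BKV_889 had 138.2 CPM of them and BKV_890 142.0 CPM, against the order of Tnc. The part of other cells in the Tnc counts was not tested.

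The estimated split of Tnc counts between coding models varied from library to library. Tnc-203, which holds an extra exon against Tnc-201, took 84.4% of the gene's counts in AOL_1231 and 0% in AOL_1081, BKV_729 and BKV_733. Tnc-204, which starts at an upstream first exon, took 80.2% in BKV_884 and 0% in BKV_889. AOL_1081, BKV_729 and BKV_733 held only 11, 45 and 13 Tnc counts. Of the words of 31 bases, 0 of 6803 in Tnc-201 occur in no other Tnc transcript, 298 of 7076 in Tnc-203 and 267 of 7070 in Tnc-204. These shares are therefore estimates, and a change of models between libraries was not tested. No Tnc model was called for NTN in either genotype (edgeR adjusted p of 0.178 for Tnc-203 in PodTOM and 0.0841 in MyD88pko). Promoter windows are shown for Tnc and Col3a1, which were called higher with Sparc, and for Col1a2, which was not called, to compare their letters. Capitals mark the letters TATAAA of the TATA-box motif, or the letters CCAAT of the CAAT-box motif, each searched on both strands, and no matches overlap. Only these exact letters were searched. Close variants, such as the letters tatataa that lie nearer the start in the Tnc window, are not marked.
Tnc window (chr4:64046887-64047186, minus strand): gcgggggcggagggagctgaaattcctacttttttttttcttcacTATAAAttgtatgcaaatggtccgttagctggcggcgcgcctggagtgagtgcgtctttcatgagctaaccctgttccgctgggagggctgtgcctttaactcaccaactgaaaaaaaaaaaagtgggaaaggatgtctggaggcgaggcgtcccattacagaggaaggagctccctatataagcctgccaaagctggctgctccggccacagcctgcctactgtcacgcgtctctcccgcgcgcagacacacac
Col3a1 window (chr1:45311288-45311587, plus strand): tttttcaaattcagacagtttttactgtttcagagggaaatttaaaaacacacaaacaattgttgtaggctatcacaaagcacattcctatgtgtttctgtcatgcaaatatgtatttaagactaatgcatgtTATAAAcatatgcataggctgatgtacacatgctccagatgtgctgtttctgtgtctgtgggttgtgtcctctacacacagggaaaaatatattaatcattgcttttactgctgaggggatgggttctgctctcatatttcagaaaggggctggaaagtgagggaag
Col1a2 window (chr6:4505368-4505667, plus strand): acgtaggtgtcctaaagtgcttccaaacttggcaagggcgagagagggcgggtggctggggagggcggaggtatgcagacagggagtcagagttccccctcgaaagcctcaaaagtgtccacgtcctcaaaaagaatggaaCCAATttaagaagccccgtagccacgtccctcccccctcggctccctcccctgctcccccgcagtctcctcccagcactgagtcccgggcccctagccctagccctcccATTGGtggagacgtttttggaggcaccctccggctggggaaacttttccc

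These sequences are RefSeq's (GRCm38.p6), where 6 of the 9 genes had a window of 300 bases (not Fn1, Col1a1 and Thbs1). These 6 genes had 8 windows in all, because Tnc and Spp1 had more than 1. TATAAA was in both windows of Tnc, in that of Col3a1 and in the first of Spp1, at positions from -117 to -211. It was in 13.6% of all 32851 promoter windows. CCAAT was in the window of Col1a2 and the first of Spp1, and in 37.4% of all windows. The other Spp1 window had neither. Sparc and Col6a1 had neither. A match describes the letters and not a site.

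Spp1 (ENSMUSG00000029304, chromosome 5, 104435118 to 104441050, plus strand) encodes osteopontin, an integrin and CD44 ligand that kidney tubules secrete. It was at 1.54, 1.54 and 10.5 CPM in untreated and 5.43, 3.81 and 0.142 CPM in nephritic PodTOM libraries. MyD88pko libraries had 2.47 and 0 CPM untreated and 1.17, 0.646 and 0.0332 CPM in nephritis. The groups compared overlapped, and no comparison of Spp1 was called by edgeR (adjusted p from 0.693 to 1). The 6 thick limb and distal tubule markers summed to 122.8 CPM in AOL_1086, the library highest in Spp1, and to 21.1 to 71.0 CPM in the other libraries, and the thick limb marker Umod was at 41.7 CPM there and at 0.142 to 6.37 CPM elsewhere. The part of tubular RNA in the Spp1 values was not tested.

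**Figure D4:**
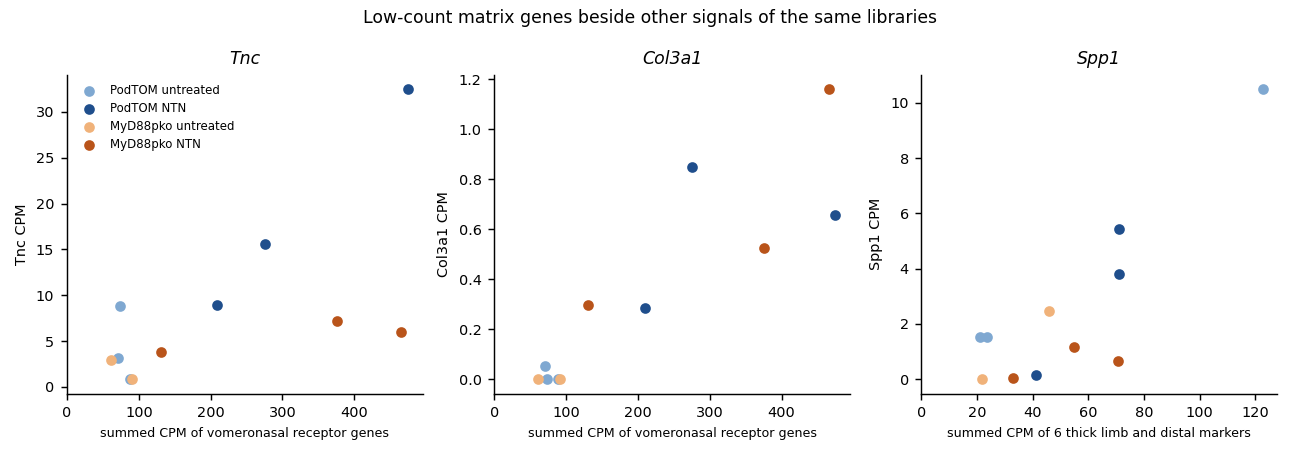
CPM of Tnc, Col3a1 and Spp1 (y axes) against the summed CPM of 549 vomeronasal receptor genes (left and middle) or of 6 thick limb and distal tubule markers (right), with 1 point for each of the 11 libraries coloured by group. AOL_1225 is highest in Tnc (32.5 CPM) and in vomeronasal signal (474.5 CPM), and AOL_1086 is highest in Spp1 (10.5 CPM) and in thick limb markers (122.8 CPM).

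Fn1 (ENSMUSG00000026193, chromosome 1, 71585520 to 71653200, minus strand), the gene of fibronectin, was at 15.9, 15.5 and 15.5 CPM untreated and 13.6, 13.9 and 14.6 CPM in nephritis of PodTOM podocytes (log2 fold change -0.16 ± 0.23 SE, n = 3 and 3, edgeR adjusted p = 0.64). These PodTOM groups did not overlap, and their difference did not pass the test. In MyD88pko podocytes it was 12.2 and 17.0 CPM untreated and 9.22, 7.11 and 10 CPM in nephritis. The nephritic MyD88pko libraries were the lowest of the series and overlapped no other group, but the log2 fold change of -0.73 ± 0.26 SE (n = 3 and 2) had an edgeR adjusted p of 0.0538. With DESeq2 the adjusted p was 0.0268, without AOL_1081 or BKV_890 it was 0.0426 and 0.0327 in edgeR, and over the 20 alternatives it reached 0.526. Against nephritic PodTOM, nephritic MyD88pko had a log2 fold change of -0.67 (95% interval -1.16 to -0.18, unadjusted p = 0.00985 and adjusted p = 0.593 in edgeR), and the difference between the NTN responses was -0.57 (-1.30 to 0.16).

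In the estimated split between models, most of these Fn1 counts were not assigned to a coding transcript. Fn1-215, a model that GENCODE types as a retained intron (chromosome 1, 71604097 to 71624344, 12 exons, 2778 bases), held 64.8% to 96.5% of the gene's counts in each library, and transcripts typed as protein coding held 0% to 29% (9.61% over all libraries). Fn1-215 ends 873 bases into the intron that follows the coding exon at 71604970 to 71605083, and 873 of its 2748 words of 31 bases occur in no other Fn1 transcript. The junction is shown because it is where this model leaves the coding transcripts, with 60 bases of the exon in lower case and the first 120 bases of the retained intron in capitals (chr1:71604850-71605029, minus strand, GRCm38, from the GENCODE M21 transcript).
Fn1-215 junction: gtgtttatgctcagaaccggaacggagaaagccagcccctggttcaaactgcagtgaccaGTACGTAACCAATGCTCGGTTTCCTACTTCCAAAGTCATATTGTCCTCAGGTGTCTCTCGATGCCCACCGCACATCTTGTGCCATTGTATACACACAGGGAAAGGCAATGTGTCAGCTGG
On its own, Fn1-215 was at 14.7, 12.9 and 12 CPM in untreated and 9.23, 10.3 and 11.2 CPM in nephritic PodTOM libraries, and its log2 fold changes of -0.37 in PodTOM and -0.65 in MyD88pko were not called (edgeR adjusted p = 0.417 and 0.212). The coding model Fn1-203 (44 exons) was at 0 CPM in the 5 untreated libraries and, in nephritis, at 4.12 (AOL_1225), 0 (AOL_1231) and 0.323 CPM (AOL_1265) in PodTOM and 0.770 (BKV_884), 0 (BKV_889) and 0.727 CPM (BKV_890) in MyD88pko libraries. It was not called for NTN (edgeR adjusted p = 0.189 in PodTOM and 0.35 in MyD88pko). Of its 7767 words of 31 bases, 25 occur in no other Fn1 transcript, so its level is an estimate. Other coding models held counts in untreated libraries. All coding Fn1 models together held estimated counts of 0 to 19.4 in untreated and 20.7 to 84.1 in the deeper nephritic libraries, and their sum was not tested. With coding transcripts alone, the mean Fn1 level over the 11 libraries was 0.300 TPM in place of 8.80 TPM.

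Of the type I collagen chains, Col1a2 (ENSMUSG00000029661, chromosome 6, 4504814 to 4541544, plus strand) was plainly expressed. Its CPM was 259.9, 267.2 and 290.0 in untreated and 268.9, 290.7 and 223 in nephritic PodTOM libraries, and the groups overlapped (log2 fold change -0.06, 95% interval -0.37 to 0.25, edgeR adjusted p = 0.787). MyD88pko libraries had 256.1 and 297.3 CPM untreated and 237.5, 190.8 and 229.6 CPM in nephritis, which did not overlap (-0.34, -0.68 to 0.01, edgeR adjusted p = 0.149). The coding model Col1a2-201 held 95.2% to 96.6% of these counts in each group.

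Col1a1 (ENSMUSG00000001506, chromosome 11, 94936224 to 94953042, plus strand) encodes the chain that pairs with the Col1a2 product in the usual type I trimer, with more α1 than α2 chains. It was at 33.4, 1.91 and 2.33 CPM in untreated and 5.48, 2.23 and 2.89 CPM in nephritic PodTOM libraries. MyD88pko libraries had 3.25 and 2.07 CPM untreated and 2.79, 2.45 and 2.72 CPM in nephritis. AOL_1081 stood apart from the other 10 libraries, which ranged from 1.91 to 5.48 CPM, and the PodTOM log2 fold change of -1.82 ± 0.91 SE (edgeR adjusted p = 0.158) became 0.70 without it. Per length over all transcript models, Col1a2 exceeded Col1a1 by 9.17 to 173.9 times in every library, including AOL_1081. Noncoding models of Col1a1 weigh on this ratio in some libraries. Col1a1 was at 9.78 TPM over all models and 1.27 TPM over coding ones in AOL_1225, and at 5.1 and 0.57 TPM in BKV_890. In AOL_1081 both values were 9.8 TPM.

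Col6a1 (ENSMUSG00000001119, chromosome 10, 76708792 to 76726168, minus strand), a chain of the filament-forming collagen VI, followed the same library. It was at 7.18, 0.424 and 1.19 CPM in untreated and 1.26, 0.578 and 0.664 CPM in nephritic PodTOM libraries, and at 0.267 to 0.585 CPM in the 5 MyD88pko libraries. The log2 fold changes for NTN were -1.80 ± 0.90 SE in PodTOM (0.01 without AOL_1081) and -0.30 ± 1.06 SE in MyD88pko, and neither was called (edgeR adjusted p = 0.145 and 0.866). In AOL_1081 the 14 mesangial and smooth muscle markers summed to 215.3 CPM, against 124.9 to 150.0 CPM in the other untreated libraries. The defining ones did not stand out there: Pdgfrb was at 35.1 CPM (26.6 to 44.3 CPM in the others) and Itga8 at 5.41 CPM (2.54 to 10.1 CPM). Fibroblast markers summed to 17.3 CPM in AOL_1081, against 11.3 to 24.5 CPM. The part of other cells in its Col1a1 and Col6a1 counts was not tested.

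Col3a1 (ENSMUSG00000026043, chromosome 1, 45311538 to 45349706, plus strand), the fibrillar collagen III of reticular fibres, was near 0. Its estimated counts were 0, 1 and 0 in untreated and 14, 22 and 6 in nephritic PodTOM libraries, and 0 and 0 against 13, 27 and 9 in MyD88pko. Every nephritic library held some counts, at 0.284 to 1.16 CPM. Over the summed counts Col3a1 was 29.3 times higher in PodTOM nephritis (95% counting interval 4.98 to 1184.6, n = 3 and 3, edgeR adjusted p = 0.0431), and at least 6.35-fold higher in MyD88pko against a floor of 3 counts over the group (n = 3 and 2, edgeR adjusted p = 0.0463). Both bounds cover counting error only, and the calls were held by 6 of 17 alternatives in PodTOM and 7 of 18 in MyD88pko. The PodTOM call was lost without any one of AOL_1081, AOL_1082, AOL_1086, AOL_1225, AOL_1231, BKV_884 and BKV_889 (edgeR adjusted p from 0.0602 to 0.112). The MyD88pko call was lost without any one of AOL_1082, BKV_729, BKV_733, AOL_1225, AOL_1231, BKV_884 and BKV_889 (0.0521 to 0.208). Without the 3 libraries with most vomeronasal signal the adjusted p was 0.188 and 0.397. The 9 fibroblast markers reached a summed 11.3 to 24.5 CPM without and 17.0 to 45.3 CPM with nephritis, and of the defining ones Pdgfra went from 0.463 to 1.47 CPM to 3.51 to 13.4 CPM while Pi16 was at 3.46 to 13.3 CPM over all libraries. The part of other cells in the Col3a1 counts was not tested.

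The second question was whether Myd88 in podocytes altered these genes. MyD88pko against PodTOM called 0 of the 9 genes in nephritis and 0 of 9 in untreated podocytes, beside 0.0613% and 0.0189% of all genes, and the difference between the NTN responses called 0 of 9, beside 0.00472% (edgeR). At an unadjusted p under 0.05 these comparisons held 2 (Fn1 and Tnc), 1 (Col6a1) and 0 genes, and DESeq2 called 0, 0 and 0. Without the filter on low counts edgeR called Tnc and Spp1 lower in nephritic and Col1a1 lower in untreated MyD88pko podocytes. The shares of all genes in that fit and at an unadjusted p under 0.05 are not given here. Untreated Col1a1 rested on AOL_1081 at 33.4 CPM. The other untreated libraries were at 1.91 and 2.33 CPM in PodTOM and 3.25 and 2.07 CPM in MyD88pko. In the main fit its log2 fold change ranged from -2.74 to 0.32 with 1 library left out. Spp1 overlapped between the nephritic genotypes (0.142 to 5.43 and 0.0332 to 1.17 CPM). Tnc was at 8.96 to 32.5 CPM in nephritic PodTOM and 3.81 to 7.15 CPM in nephritic MyD88pko libraries, which did not overlap (log2 fold change -1.76, 95% interval -3.26 to -0.26, edgeR adjusted p = 0.735). For Sparc, Thbs1 and Col1a2 the intervals of the difference between the responses reached from -0.25 to 0.79, -0.46 to 0.73 and -0.74 to 0.20, so differences of that size could not be told from none. The comparisons of each genotype share no libraries with each other, while those between genotypes reuse the same libraries.

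Other matrix genes, listed with earlier results of these data known, give the surroundings. Of 16 tested other matricellular genes, 5 were higher and 3 lower in PodTOM nephritis and 6 higher and 2 lower in MyD88pko, with median log2 fold changes of 0.51 and 0.63. Over all genes tested, 15.9% were called higher and 9.93% lower in PodTOM and 11.3% and 8.22% in MyD88pko, with medians of 0.19 and 0.16, and these are the values to set beside this list and those that follow. With the vomeronasal signal as a covariate 3 of these matricellular genes were called higher in PodTOM and 2 in MyD88pko and 0 lower in either, while the genes called among all 21200 fell from 3381 to 625 higher and from 2106 to 143 lower in PodTOM and from 2390 to 858 and from 1743 to 261 in MyD88pko. Ccn2, the gene of connective tissue growth factor, rose from 372.6 to 489.6 CPM to 1733.2 to 2187.1 CPM in PodTOM (log2 fold change 2.22 ± 0.24 SE, n = 3 and 3, edgeR adjusted p = 1.46e-05) and from 270.4 to 326.6 CPM to 871.5 to 1978.3 CPM in MyD88pko (2.21 ± 0.28 SE, edgeR adjusted p = 9.28e-05). Tgfbi, a TGF-β-induced adhesion protein of the matrix, rose 4.92-fold and 3.45-fold. Tnr, a tenascin known from the nervous system, rose 4.67-fold and 4.74-fold to 36.0 to 104.3 CPM, highest in the libraries with most vomeronasal signal. Ccn1 rose 1.90-fold in MyD88pko and had a log2 fold change of 0.43 in PodTOM (edgeR adjusted p = 0.0519). The difference between these Ccn1 responses was not called (edgeR adjusted p = 0.855). Ccn4 fell in both, from 7.81 to 12.5 CPM to 1.43 to 4.40 CPM, and of the thrombospondins Thbs2 rose in both genotypes (to 1.93 to 10.3 CPM in PodTOM, edgeR adjusted p = 0.0161, and to 1.53 to 2.59 CPM in MyD88pko, 0.0343) while Thbs1 fell.

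Of 18 fibrillar and associated collagens, 8 were higher and 0 lower in PodTOM nephritis and 4 higher and 1 lower in MyD88pko, with median log2 fold changes of 1.93 and 1.68 (1.93 and 1.38 with genes at 0 in untreated libraries set to their bounds), against 0.19 and 0.16 over all genes. Their levels were low. Col12a1, a collagen that sits on fibril surfaces, rose from 2.09 to 3.39 CPM to 8.90 to 17.7 CPM in PodTOM, and Col5a1 and Col5a3, chains of the fibril-nucleating collagen V, rose to 1.37 to 3.97 CPM and 2.99 to 8.34 CPM. Col6a5 and Col24a1 were at 0 in all untreated libraries and at least 21.9-fold and 16.7-fold higher in nephritic PodTOM. Without the 3 libraries with most vomeronasal signal, 3 of the 18 collagens were called higher in PodTOM, and with limma on log2(TPM + 1) 0 were called in either genotype. The shares of all genes called in these settings are not given here. A loss particular to collagens therefore cannot be told from fewer calls in general. With that signal as a covariate, in a fit that cannot cleanly tell it from nephritis, 0 of the 18 were called in either direction in either genotype.

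Of 22 elastic fibre and small proteoglycan genes, 5 were higher and 2 lower in PodTOM nephritis and 0 higher and 1 lower in MyD88pko, and the median log2 fold changes of 0.28 and 0.22 were near the 0.19 and 0.16 of all genes. With the vomeronasal covariate 0 were called in either direction in either genotype. Bgn (biglycan, a small proteoglycan that also engages Toll-like receptors) rose in PodTOM from 7.26 to 17.4 CPM to 36.2 to 66.4 CPM (log2 fold change 2.00 ± 0.31 SE, n = 3 and 3, edgeR adjusted p = 0.000383), and Dcn (decorin), which is also on the fibroblast marker list, rose to 4.28 to 7.49 CPM. Fmod (fibromodulin) fell in PodTOM from 7.47 to 11.9 CPM to 0.281 to 4.46 CPM, and Ltbp4, which tethers latent TGF-β, fell in MyD88pko from 62.7 to 78.2 CPM to 36.9 to 46.7 CPM. Both calls were lost in 8 of 20 alternatives. That of Fmod (log2 fold change -2.46, edgeR adjusted p = 0.0338) was lost without any one of AOL_1081, AOL_1082, AOL_1086, BKV_729, BKV_733, AOL_1225 and AOL_1231 (0.0505 to 0.0989) and with the covariate (0.53), and in MyD88pko its value was -2.39 (edgeR adjusted p = 0.0527). That of Ltbp4 (-0.76, edgeR adjusted p = 0.0189) was lost without BKV_729, BKV_733 or BKV_889 (0.191, 0.0533 and 0.0735), without the 3 libraries with most vomeronasal signal (0.246), and with the covariate, limma, length-scaled counts or a mean of at least 5 CPM (0.0508 to 0.251). Whether the genotypes differ in these genes was tested and not called for any gene of the list.

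Of 28 collagen assembly genes, 12 were higher and 1 lower in PodTOM and 10 higher and 0 lower in MyD88pko, with median log2 fold changes of 0.46 and 0.50 against 0.19 and 0.16 over all genes, and with the vomeronasal covariate 5 were higher and 0 lower in each genotype. Loxl2, a lysyl oxidase that cross-links collagen, rose 2.08-fold in PodTOM (284 to 337 CPM untreated, 646.7 to 689.9 CPM nephritic, edgeR adjusted p = 0.000231) and 2.37-fold in MyD88pko. The prolyl hydroxylase subunit gene P4ha3 rose 3.32-fold and 3.20-fold, Ppib (cyclophilin B, a folding catalyst of procollagen) 1.80-fold and 2.35-fold, and the procollagen proteinase Tll1 3.71-fold and 3.5-fold. Among nephritic libraries Tll1 was highest in the 3 with most vomeronasal signal (35.7 to 40.0 CPM) and lowest in BKV_890 (14.4 CPM), and with that signal as a covariate its log2 fold changes were 0.47 and 0.32 (edgeR adjusted p = 0.516 and 0.675). Without the 3 libraries the MyD88pko value of Tll1 was 0.79 (edgeR adjusted p = 0.264). The lysyl hydroxylase genes Plod1 and Plod2 rose in both genotypes (log2 fold changes 0.98 and 0.54 in PodTOM, 0.51 and 0.63 in MyD88pko), whereas P3h2, a prolyl 3-hydroxylase that acts on collagen IV, fell in PodTOM from 2338.2 to 3045 CPM to 1471.5 to 1748.3 CPM.

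**Figure D5:**
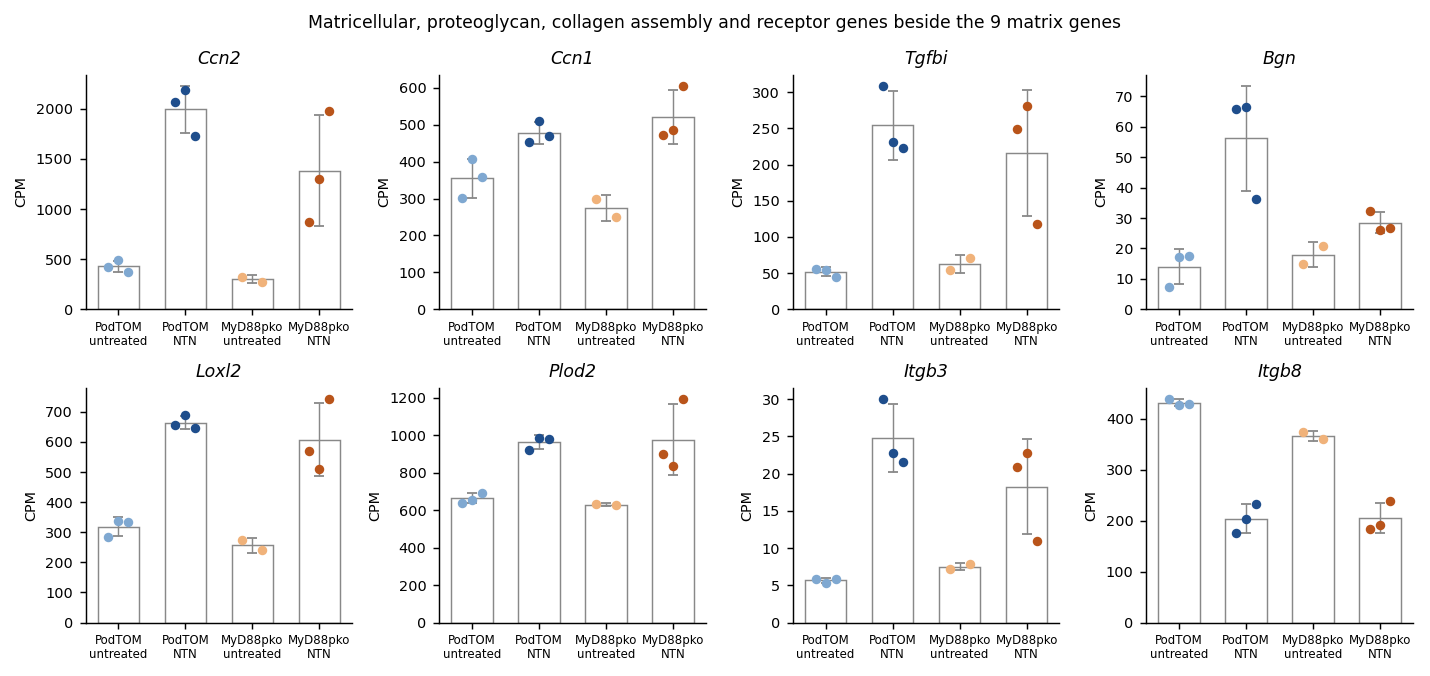
CPM of 8 genes of the matrix lists in each library (points) with the group mean (bar) and SD (line), on linear axes from 0; groups are as in the plot of the 9 matrix genes. In both genotypes the nephritic libraries lie above the untreated ones for Ccn2 (at least 871.5 against at most 489.6 CPM) and Loxl2 (at least 510 against at most 337 CPM), and below them for Itgb8 (at most 238.6 against at least 360.4 CPM).

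Of 20 matrix receptor genes, 6 were higher and 3 lower in PodTOM nephritis and 5 higher and 2 lower in MyD88pko, with median log2 fold changes of 0.56 and 0.54 against 0.19 and 0.16 over all genes. With the vomeronasal covariate 2 were higher and 1 lower in PodTOM and 3 and 0 in MyD88pko. Itgb3, a partner of αv that binds osteopontin, fibronectin and thrombospondin-1, rose from 5.30 to 5.87 CPM to 21.5 to 30 CPM in PodTOM and from 7.15 to 7.81 CPM to 11 to 22.8 CPM in MyD88pko, where 5 of 20 alternatives lost the call. Itgb8 and Itgb5, the genes of other partners of αv, fell in both genotypes: Itgb8 2.12-fold in PodTOM and 1.79-fold in MyD88pko, and Itgb5 from 549.9 to 651.5 CPM to 316.6 to 383.8 CPM in PodTOM (edgeR adjusted p = 0.00339) and from 558 to 616.8 CPM to 321.6 to 470.9 CPM in MyD88pko, where 6 of 20 alternatives lost the call. Itgav itself fell in PodTOM from 946.2 to 1077.9 CPM to 589.8 to 678.3 CPM (edgeR adjusted p = 0.00267), and in MyD88pko its log2 fold change was -0.43 (0.0708). Itga1, a collagen receptor subunit, rose 1.84-fold and 1.71-fold, and of the subunits of the fibronectin receptor Itga5 rose in both genotypes (log2 fold changes 1.18 and 1.16, edgeR adjusted p = 0.0033 and 0.0113), while Itgb1, which also pairs with αv, rose in MyD88pko (1.55-fold) and had a log2 fold change of 0.32 in PodTOM (edgeR adjusted p = 0.0945). Itga8, which is also a mesangial marker, rose in PodTOM to 13.8 to 51.2 CPM.

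The genes whose log2 CPM over the 11 libraries was most like that of each member, among 11675 other genes averaging 5 CPM or more, were Cdk6 (Pearson r = 0.993), Rnasek (0.977) and Plod2 (0.973) for Sparc, and Map3k5 (0.991), Creb3l2 (0.988) and Pld1 (0.988) for Thbs1. Palmd (0.967), Prkra (0.962) and Dkk2 (0.956) were nearest to Tnc. Fn1 was nearest to Gm32687 (0.978), Col1a2 to Rassf3 (0.938) and Col1a1 to Gtf2ird2 (0.931). Col1a1 averaged 5 CPM or more only through AOL_1081 (33.4 CPM, against 1.91 to 5.48 CPM in the others), so its neighbours lean on that library. These correlations describe 11 libraries that share the treatment and its depth, and carry no test.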

How the data were processed

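RNA of sorted podocytes, from glomeruli isolated with beads, was amplified as cDNA and sequenced for 11 libraries. The authors removed adapters (cutadapt), pseudoaligned reads to the Ensembl transcriptome of GRCm38 with kallisto, and deposited for every transcript an estimated count beside its length and effective length (other values). FastQC, SAMtools and sleuth are also named in the submitters' processing notes. By identifier, 107987 of 109282 transcripts matched GENCODE M21; the remaining 1295, with 0.467% to 0.638% of a library's counts, were dropped. Gene counts are rounded sums of estimated counts, and TPM was recomputed from counts and effective lengths.

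The main test was edgeR 4.0.16 (R 4.3.3): filterByExpr with a minimum count of 10, TMM factors, a robust quasi-likelihood F test and a mean for each of the 4 groups, with Benjamini-Hochberg adjustment within a comparison and a threshold of 0.05. Transcripts were handled alike. Intervals are 95%. Those of log2 fold changes come from the quasi-likelihood fit and include the scatter between libraries. Counting intervals are exact, and they and the floors cover counting error only. The fit was tested on simulated data. Alternatives were DESeq2 1.42.0, limma 3.58.1 on log2(TPM + 1), RLE factors, length-scaled counts, other filters, other sets of libraries, a vomeronasal covariate, and each library left out in turn. Summaries used Python 3.11.15 (pandas 2.3.3, numpy 2.4.6) and scipy 1.17.1, figures matplotlib 3.10.9.

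Beside the 9 genes, those named were drawn from up to 6 per list and comparison. These had the smallest adjusted p under 0.05 and no overlap between groups. Postn, Col11a2, Fbln1, Fbln5, Eln, Itga9 and P4hb also met this rule and are not described. Transcripts described were drawn from those with at least 5% of a gene's counts in a group, and nearest genes from 3 per member. The members and lists were chosen with earlier results of these data known. Low genes are limited by depth: 3 counts over the untreated MyD88pko group are worth 0.0988 CPM. Sequencing batches could not be modelled, because the labels mention 6 pooled libraries but not which.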

Additional observations from a re-analysis of the deposited data

How the results depend on the processing

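The NTN calls of Sparc and Thbs1 held in both genotypes under all 20 alternatives. In PodTOM 3 genes were called higher, against 1 with limma, without the 3 libraries with most vomeronasal signal and with that signal as a covariate, and 1 lower, against 2 without the filter. In MyD88pko 2 were called higher, against 1 with limma, with a mean of at least 5 CPM, with only the libraries compared, without the 3 libraries and with the covariate, and 1 lower, against 2 with DESeq2. Without the filter 2 genes were called lower between nephritic genotypes and 1 between untreated ones, against 0 and 0. With only the libraries compared, 2 member transcripts were called in PodTOM, against 3 (Sparc-201 lost), and 4 in MyD88pko, against 2 (Sparc-201 and Sparc-208 gained). Leaving out 1 library gave 1 to 3 members higher in PodTOM, 1 to 2 in MyD88pko and 1 to 2 lower in both. Without the 3 libraries BKV_890 alone stands for nephritic MyD88pko, assumed to vary like the other groups.

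List counts without those 3 libraries and with limma, where they moved by over 1.5 times, were as follows. The shares of all genes called without those libraries and with limma are not given here, so no fall is read as particular to a list. Collagens higher went from 8 to 3 and 0 in PodTOM and from 4 to 0 and 0 in MyD88pko, and lower from 1 to 0 and 0. Matricellular genes went from 5 higher to 3 and 3 and from 3 lower to 1 in PodTOM, and from 2 lower to 0 and 0 in MyD88pko. Elastic fibre genes went from 5 higher to 1 and 2 and from 2 lower to 1 in PodTOM, and from 1 lower to 0 in MyD88pko. Assembly genes with limma were 5 higher and 3 lower in PodTOM (12 and 1) and 1 lower in MyD88pko (0), and 5 higher without the 3 libraries in MyD88pko (10). Receptor genes in MyD88pko were 3 and 3 higher (5) and 0 lower (2) without the 3 libraries. With the covariate, collagens were 0 higher in both genotypes (8 in PodTOM, 4 in MyD88pko) and 0 lower in MyD88pko (1). Matricellular genes were 3 higher and 0 lower in PodTOM (5 and 3) and 2 and 0 in MyD88pko (6 and 2), elastic fibre genes 0 and 0 in PodTOM (5 and 2) and 0 lower in MyD88pko (1). Assembly genes were 5 higher in both (12 and 10) and 0 lower in PodTOM (1), and receptor genes 2 and 1 in PodTOM (6 and 3) and 3 and 0 in MyD88pko (5 and 2).

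Some log2 fold changes that were not called changed sign, and the cause was not tested. In PodTOM nephritis these were Fn1 (0.05 with the covariate), Col1a1 (0.25 with length-scaled counts, 0.31 with limma) and Col1a2 (0.07 with a mean of at least 5 CPM). In MyD88pko, Col1a1 (-0.00) was 0.032 with RLE and 0.032 with DESeq2, 1.97 length-scaled, 0.98 with limma, 0.00 unfiltered, 0.15 with at least 5 CPM, 0.10 with only the libraries compared and 0.07 without the 3 libraries, and Col6a1 was 0.20 length-scaled. Between nephritic genotypes, Thbs1 (-0.01) was 0.046 with RLE and 0.046 with DESeq2, 0.078 length-scaled, 0.26 with limma, 0.03 with at least 5 CPM and 0.01 without the 3 libraries, where Col1a1 was 0.12 and Col3a1 -0.89. Between untreated genotypes Col1a2 was -0.033 length-scaled and -0.022 with limma, and the difference between responses for Spp1 was 0.46 with limma. With the covariate, Col8a1 was -0.034 in PodTOM and Col11a1 -0.27 in MyD88pko, both called higher without it.

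With 1 library left out, values that changed sign ranged as follows. NTN in PodTOM: Col1a1 from -2.36 to 0.70, Col1a2 from -0.18 to 0.039, Col6a1 from -2.35 to 0.009 and Spp1 from -1.16 to 1.02. NTN in MyD88pko: Col1a1 from -0.29 to 0.36, Col6a1 from -0.75 to 0.36 and Spp1 from -2.02 to 6.68. Between nephritic genotypes: Col1a1 from -0.63 to 0.14, Col3a1 from -0.53 to 0.52, Sparc from -0.08 to 0.24 and Thbs1 from -0.067 to 0.097. Between untreated genotypes: Col1a1 from -2.74 to 0.32, Col1a2 from -0.091 to 0.12, Col3a1 from -2.58 to 0.00, Fn1 from -0.36 to 0.12 and Thbs1 from -0.32 to 0.10. Differences between responses: Col1a1 from -0.71 to 2.36, Col6a1 from -0.32 to 2.16, Spp1 from -2.03 to 7.22, Thbs1 from -0.081 to 0.31 and Tnc from -1.64 to 0.55. The list alternatives were chosen after seeing the data. No paired analysis was possible because the groups share no replicate numbers in the labels.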
